A study of Mus musculus with 10 samples.

Results

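Neurofilaments and tubulins are the structural polymers of the neuronal cytoskeleton. The set described here holds 10 of the 48709 genes with a row in the count tables: the neuronal intermediate filament genes Nefl, Nefm, Nefh and Ina, and the tubulin genes Tubb3, Tubb2a, Tubb2b, Tubb4a, Tubb5 and Tuba1a. Members were found by matching Ensembl identifiers to these symbols in GENCODE M21, and all 10 matched and passed the filter on low counts that left 15660 genes for testing. The set was drawn up after lower Nefh and Tubb3 counts had been seen in the comparison given below. For that reason the members' differences between groups are given as a description. No p-value is given for them, and where the counts of genes past the threshold of the fit over all genes include members, nothing is read from that.

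Poly(A) RNA was sequenced from cultured primary neurons of the mouse hippocampus kept for 10 days in vitro. The DMSO group (4 libraries) received the solvent for 6 h, and the tunicamycin group (6 libraries) received tunicamycin at 2 ug/mL for 6 h. Tunicamycin blocks N-linked glycosylation and so causes protein misfolding in the endoplasmic reticulum. The labels name no genotype or strain. They also do not state that the libraries are independent cultures, so a p-value here weighs a difference against library-to-library spread that may be technical only. Library totals ran from 21100000 to 29200000 counts.

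Neurofilaments fill the axon and set its calibre. In neurons of the brain they are assembled from the light, medium and heavy subunits (Nefl, Nefm and Nefh) together with alpha-internexin (Ina), and the heavy subunit enters the polymer late in neuronal maturation. Microtubules are polymers of alpha- and beta-tubulin dimers. Neurons use several beta isotypes encoded by separate genes, of which Tubb3 is the classical neuronal one, and Tuba1a is the main alpha-tubulin of developing neurons. The stability of alpha- and beta-tubulin mRNA is set in part by autoregulation: when soluble tubulin dimers are in excess, TTC5 binds the beginning of the nascent tubulin chain and the mRNA is degraded on the ribosome.

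The stretch of mRNA that encodes this beginning is shown for the 6 tubulin members, because autoregulation acts through it. Each line is the first 30 bases of the coding sequence, 5′ to 3′, in GENCODE M21 (GRCm38), and capitals mark the first 4 codons.
Tubb3: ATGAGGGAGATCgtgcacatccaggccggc
Tubb2a: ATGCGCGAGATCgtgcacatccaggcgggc
Tubb2b: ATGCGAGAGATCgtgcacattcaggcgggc
Tubb4a: ATGCGGGAAATCgtgcacctgcaagccggt
Tubb5: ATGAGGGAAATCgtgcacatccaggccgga
Tuba1a: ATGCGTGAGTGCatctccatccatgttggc
The first 12 bases were identical in Tubb3 and Tubb4b, and identical in Tuba1a, Tuba1b and Tuba1c. Among the beta-tubulin members these bases differ only where the encoded amino acids stay the same. Identity of bases thus does not mark which genes share the encoded beginning. Over the whole coding sequence Tubb3 was 81.2% to 83.4% identical to the other 4 beta-tubulin members, and Tubb2a was 96.5% identical to Tubb2b.

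Tubb3 parts from Tubb2a and Tubb2b at the other end of the coding sequence. This end encodes the acidic tail where microtubule-associated proteins and tubulin-modifying enzymes act. In the last 60 bases Tubb2a and Tubb2b differ only where the encoded amino acids stay the same. The last 60 coding bases, 5′ to 3′ with the stop codon, are shown for Tubb3, the beta-tubulin member with the largest difference below, and for the closely related pair Tubb2a and Tubb2b, the most alike of the beta-tubulin members.
Tubb3: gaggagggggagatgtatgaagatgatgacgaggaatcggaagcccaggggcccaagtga
Tubb2a: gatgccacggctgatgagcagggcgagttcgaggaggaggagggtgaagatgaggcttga
Tubb2b: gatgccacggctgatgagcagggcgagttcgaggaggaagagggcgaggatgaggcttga

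Across the set, all 10 members had lower levels in the tunicamycin group, measured in CPM (counts scaled to 1000000 per library). The size of the difference fell into separate ranges: 3 neurofilament genes stood at 88.6% to 90.8% of their DMSO mean, the 6 tubulins at 53.3% to 74.0%, and Nefh at 43.0%. The median log2 fold change was -0.70 over the 10 members, -0.18 over the 4 neurofilament genes and -0.77 over the 6 tubulins, beside -0.02 over all genes tested. By edgeR's quasi-likelihood test at an adjusted p under 0.05, 10 of 10 members were lower, as were 32.5% of all genes tested, and 31.8% of all genes were higher. With upper-quartile scaling the calls over all genes split into 3632 higher and 6934 lower, against 4983 and 5082 with the TMM scaling used here, and the median log2 fold change moved by -0.115. In 9 of 10 members no tunicamycin library reached the lowest DMSO library, a pattern met by 23.9% of all genes tested. The members were chosen from this contrast, so nothing is read from these counts. In RNA from a whole culture, fewer cells of a type and less RNA per cell cannot be told apart.

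**Figure D1:**
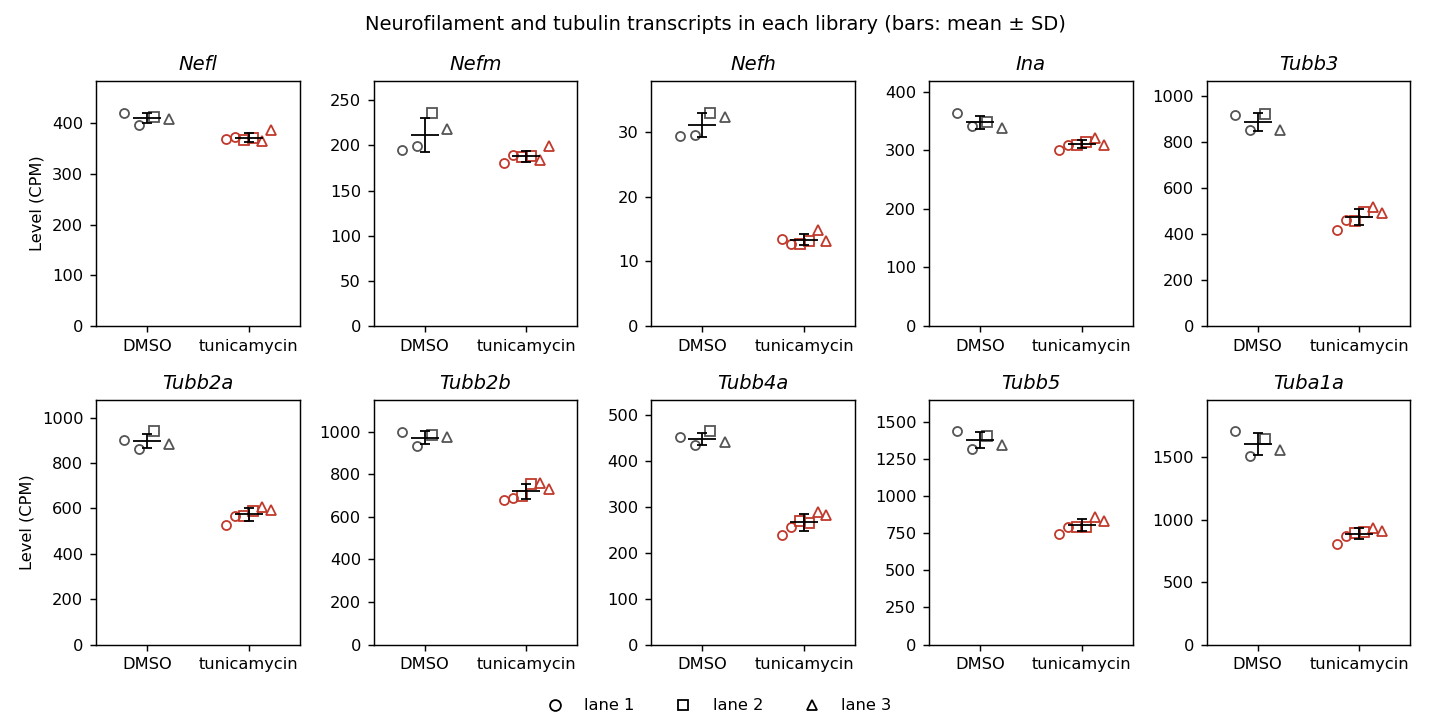
Level of each of the 10 genes in CPM (vertical axis, from 0) in every library, with DMSO libraries at left and tunicamycin libraries at right; symbols mark the sequencing lane, and bars give the mean and SD (n = 4 and n = 6). The groups overlap for Nefm, lie close together for Nefl and Ina, and are widely separated for Nefh and the tubulins.

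Among the intermediate filament genes, Nefh had the largest difference of the whole set. Nefh (ENSMUSG00000020396, minus strand of chr11:4938754-4948064, GRCm38) encodes the heavy subunit, whose long tail carries repeated lysine-serine-proline motifs that are phosphorylated in axons. The other subunits hold few or none of these repeats, so 150 bases of it are shown (coding bases 1549 to 1698, 5′ to 3′). Capitals mark the 8 in-frame matches to AAGTCNCCN, 1 spelling of the motif.
Nefh: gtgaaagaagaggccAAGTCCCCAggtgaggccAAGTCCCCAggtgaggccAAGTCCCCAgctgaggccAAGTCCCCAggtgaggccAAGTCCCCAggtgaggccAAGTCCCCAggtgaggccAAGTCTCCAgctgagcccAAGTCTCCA
The 3273 coding bases of Nefh held 34 such in-frame matches, against 2 in Nefm and 0 in Nefl and Ina. None of the 50-base words of Nefh transcripts occurred in another gene, so reads of this length are not shared with another annotated transcript.

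In the DMSO libraries Nefh stood at 29.4, 29.5, 32.9 and 32.3 CPM. In the tunicamycin libraries its lowest, median and highest levels were 12.6, 13.2 and 14.9 CPM. The groups lay far apart: the highest tunicamycin library was well below the lowest DMSO library. The means were 31.1 ± 1.84 CPM (SD, n = 4) and 13.3 ± 0.843 CPM (SD, n = 6), and the fitted log2 fold change was -1.23 ± 0.06 (SE). Of the 15660 genes tested, 155 (0.99%) had a log2 fold change as low or lower. The set was drawn up after the lower level of Nefh was seen, so this rank is a description only. Within sequencing lanes the log2 ratio of mean CPM was -1.17 in lane 1 (2 libraries per group), -1.35 in lane 2 and -1.20 in lane 3 (1 DMSO and 2 tunicamycin libraries each). Nefh was also the least abundant member per length, at 7.77 ± 0.462 CPM per kb of exon in the DMSO group.

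Nefl (ENSMUSG00000022055, plus strand of chr14:68083863-68089095) encodes the light subunit, the core on which the other subunits assemble. It stood at 420, 396, 413 and 409 CPM in the DMSO libraries, and its lowest, median and highest levels with tunicamycin were 365, 370 and 387 CPM. Every tunicamycin library was below every DMSO library, but the gap between the groups was narrow. Its mean went from 410 ± 10 CPM to 372 ± 8.1 CPM, a log2 fold change of -0.15 ± 0.03 (SE).

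Ina (ENSMUSG00000034336, plus strand of chr19:47014698-47025327) encodes alpha-internexin, an early neuronal filament protein that co-assembles with the triplet. The DMSO libraries held 364, 342, 348 and 339 CPM of it, and the tunicamycin libraries 301, 310 and 321 CPM as lowest, median and highest. The groups did not overlap, and the log2 fold change was -0.17 ± 0.03 (SE). Of its exonic bases 14.1% overlap Nt5c2, and the library kit does not mark strand, so its counts can include reads of that gene.

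Nefm (ENSMUSG00000022054, minus strand of chr14:68082590-68124846) encodes the medium subunit, which spaces neighbouring filaments. Its DMSO libraries held 195, 199, 236 and 218 CPM and its tunicamycin libraries 181, 188 and 199 CPM as lowest, median and highest. It was the only member whose groups overlapped: the highest tunicamycin library lay above the lowest DMSO library. The log2 fold change was -0.18 ± 0.05 (SE). The log2 ratio of mean CPM was -0.09 in lane 1, -0.33 in lane 2 and -0.19 in lane 3. In lane 1 fitted alone, the fitted log2 fold changes of Nefm (-0.09) and Nefl (-0.1317) were nearer to 0 than with all libraries. Neither gene passed the threshold in that fit. The log2 fold change of Nefl was also nearer to 0 in lane 3 alone (-0.1265). The annotated span of Nefm encloses Nefl, and 32.8% of the exonic bases of Nefl overlap exons of Nefm on the opposite strand, so reads from this shared stretch cannot be assigned to 1 of the genes without strand.

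The unequal differences changed the make-up of the neurofilament transcripts, here given per kb of exon so that genes can be compared. Nefh made up 2.85% ± 0.155 (SD, n = 4) of the summed CPM per kb of the 4 genes in the DMSO group and 1.38% ± 0.0884 (SD, n = 6) in the tunicamycin group. Nefl went from 44.3% ± 0.391 to 45.5% ± 0.64 and Ina from 39.4% ± 0.977 to 39.7% ± 0.754. Nefm stood at 13.4% in both groups. The groups did not overlap for the share of Nefh, and they overlapped for the shares of Nefl, Nefm and Ina. As a share of all counts the 4 genes together went from 0.100% ± 0.00264 to 0.0884% ± 0.00148.

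Among the beta-tubulin members, Tubb3 had the lowest ratio. Tubb3 (ENSMUSG00000062380, plus strand of chr8:123411424-123422015) encodes the beta isotype used to identify neurons. It stood at 918, 851, 922 and 851 CPM in the DMSO libraries and at 418, 475 and 515 CPM as lowest, median and highest with tunicamycin. No library came near the other group. The means were 886 ± 39.7 CPM (SD, n = 4) with DMSO and 472 ± 35 CPM (SD, n = 6) with tunicamycin, and the fitted log2 fold change was -0.92 ± 0.05 (SE). A value as low or lower was found for 424 of the genes tested (2.71%), a rank that is a description only, since the set was also chosen on Tubb3. The log2 ratio of mean CPM was -1.01 in lane 1, -0.96 in lane 2 and -0.76 in lane 3. None of the 50-base words of Tubb3 was found in another gene.

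Tubb5 (ENSMUSG00000001525, minus strand of chr17:35833921-35838306) encodes a broadly expressed isotype that is abundant in the developing brain. Its DMSO libraries held 1437, 1319, 1409 and 1346 CPM, and its tunicamycin libraries 745, 793 and 863 CPM as lowest, median and highest. The mean tunicamycin level was 58.3% of the DMSO mean, a log2 fold change of -0.79 ± 0.04 (SE).

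Tubb4a (ENSMUSG00000062591, minus strand of chr17:57080066-57087782) encodes an isotype largely restricted to the nervous system. It ranged from 434 to 464 CPM in the DMSO libraries and from 238 to 289 CPM with tunicamycin, a log2 fold change of -0.76 ± 0.04 (SE). Hardly any 50-base words of Tubb5 (0.0892%) and Tubb4a (0.184%) occur in another gene. For both genes the groups did not overlap.

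Tubb2a (ENSMUSG00000058672, minus strand of chr13:34074274-34078007) and Tubb2b (ENSMUSG00000045136, minus strand of chr13:34126748-34130466) are neighbouring genes for near-identical neuronal isotypes. Tubb2a ranged from 864 to 939 CPM in the DMSO libraries and from 526 to 606 CPM with tunicamycin, a log2 fold change of -0.65 ± 0.04 (SE). Tubb2b stood at 999, 931, 984 and 975 CPM with DMSO and at 679, 716 and 761 CPM as lowest, median and highest with tunicamycin. Its groups did not overlap, yet at -0.44 ± 0.04 (SE) it had the smallest difference of the 6 tubulins. Of the 50-base words of Tubb2a 45.6% occur in Tubb2b, and 31.3% of those of Tubb2b occur in Tubb2a. How the authors' counting treated such reads is not given in the sources used here, so the split between the pair is uncertain.

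**Figure D2:**
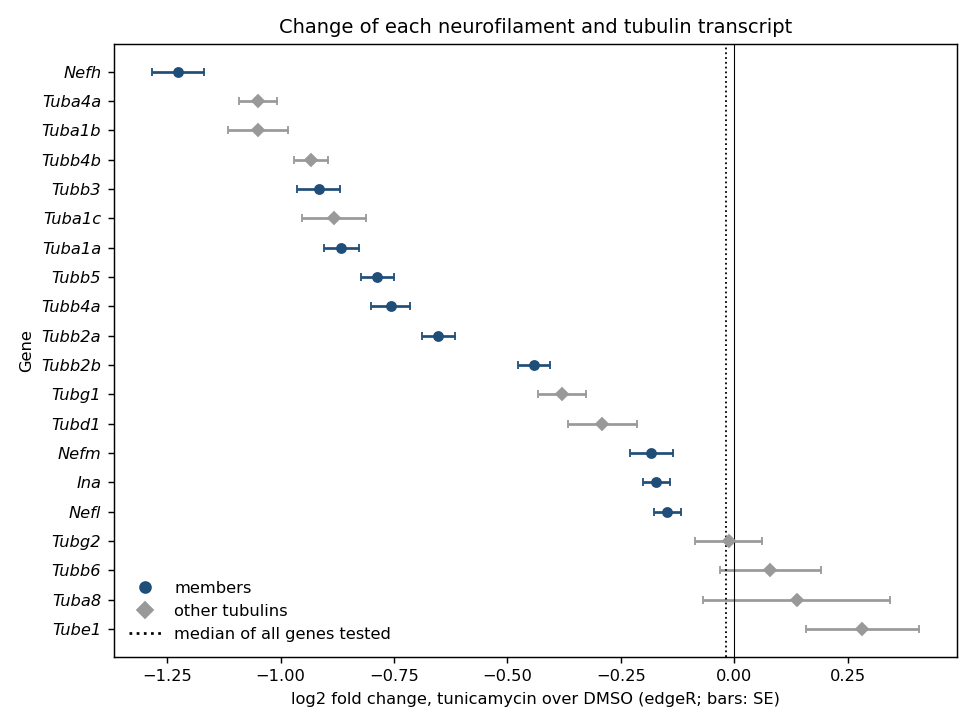
Fitted log2 fold change of tunicamycin over DMSO (horizontal axis, bars: SE) for the 10 members and the 10 other tubulin genes tested. Nefh lies lowest at -1.23, the 6 tubulin members lie between -0.92 and -0.44, and Nefl, Nefm and Ina lie between -0.18 and -0.15; the dotted line is the median of all genes tested.

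Tuba1a (ENSMUSG00000072235, minus strand of chr15:98949837-98953703), the alpha-tubulin of the set, was its most abundant transcript. Its DMSO libraries held 1708, 1508, 1651 and 1561 CPM, and its tunicamycin libraries 806, 897 and 936 CPM as lowest, median and highest. The means were 1607 ± 89.7 CPM (SD, n = 4) with DMSO and 887 ± 44.5 CPM (SD, n = 6) with tunicamycin, a log2 fold change of -0.87 ± 0.04 (SE). Among the 50-base words of Tuba1a 75.5% are found in other genes, above all in Tuba1c (46.9%), and 26.2% of its exonic bases overlap the gene model Gm49450. Its coding sequence is 98.3% identical to that of Tuba1b, so its counts can include reads of the other alpha-tubulins.

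Per kb of exon, the DMSO levels of the members ran from Tuba1a (891 ± 49.7 CPM per kb) through Tubb2a (558 ± 19.6), Tubb3 (474 ± 21.2), Tubb2b (424 ± 12.7), Tubb5 (414 ± 16.5) and Tubb4a (201 ± 5.86) to Nefl (121 ± 2.97), Ina (108 ± 3.44), Nefm (36.7 ± 3.28) and Nefh. Only Tubb2b and Tubb5 had overlapping ranges among neighbours in this order. The places of genes that share 50-base words or exonic bases with others are uncertain.

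The pool of beta-tubulin transcripts became both smaller and differently composed. Per kb of exon, Tubb3 supplied 22.1% ± 0.327 (SD, n = 4) of it in the DMSO group and 19.0% ± 0.428 (SD, n = 6) in the tunicamycin group. Tubb2b supplied 19.8% ± 0.326 and 23.7% ± 0.491. On this scale the pair exchanged places: in each DMSO library the share of Tubb3 was the higher (21.6% to 22.3% against 19.4% to 20.2%), and in each tunicamycin library that of Tubb2b was (23.3% to 24.4% against 18.4% to 19.5%). By CPM with no correction for length, Tubb2b had the larger share in both groups (20.5% against 18.7% with DMSO, 24.6% against 16.1% with tunicamycin). The exchange thus depends on the exon lengths, while the direction of each share does not. The exchange may also depend on how shared reads were counted, which is not given. Of the 50-base words of Tubb2b 36.9% occur in other genes, against 0% of those of Tubb3. Tubb2a went from 26.0% ± 0.356 to 26.9% ± 0.19, Tubb5 from 19.3% ± 0.227 to 18.2% ± 0.338 and Tubb4a from 9.37% ± 0.109 to 9.01% ± 0.241. All alpha- and beta-tubulin genes together took 0.659% ± 0.0250 of all counts in the DMSO group and 0.393% ± 0.0204 in the tunicamycin group.

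**Figure D3:**
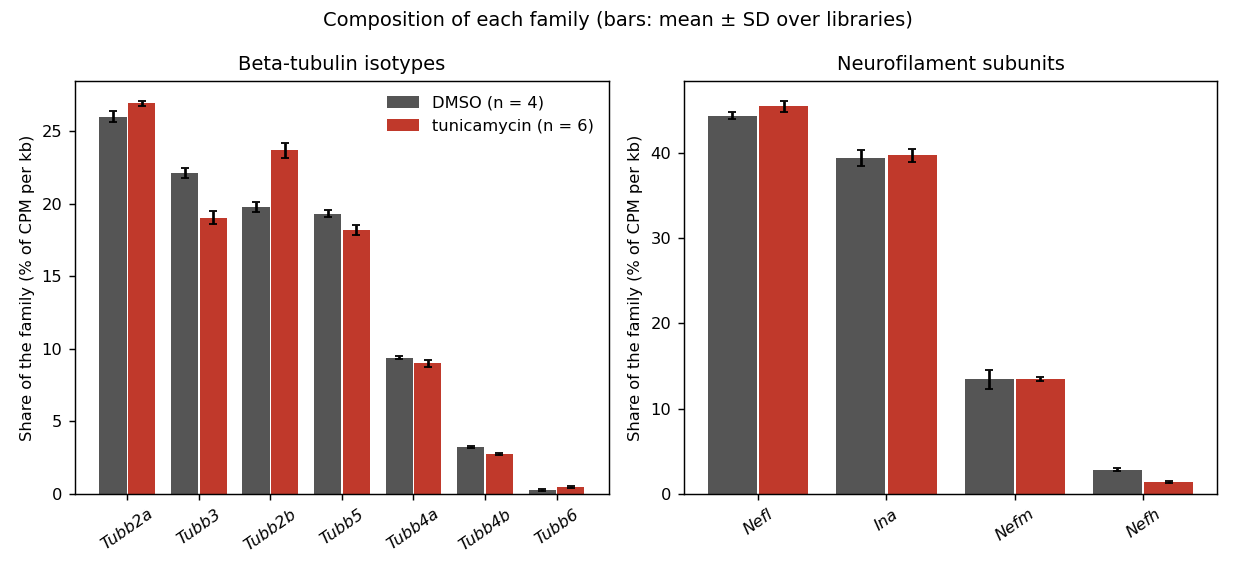
Share of each beta-tubulin isotype (left) and each neurofilament subunit (right) in the summed CPM per kb of its family, as mean and SD over 4 DMSO and 6 tunicamycin libraries. The share of Tubb3 is lower (22.1% to 19.0%) and that of Tubb2b higher (19.8% to 23.7%) with tunicamycin; the share of Nefh goes from 2.85% to 1.38%.

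The tubulin genes outside the set were examined next, beside shares of 31.8% higher and 32.5% lower over all genes tested by edgeR. Of 14 listed, 10 were tested, 6 fell and 0 rose by edgeR; 1 was higher at an unadjusted p under 0.05 and DESeq2 called 0 higher. The alpha-tubulin Tuba4a went from 190 to 92.1 CPM (log2 fold change -1.05 ± 0.04 SE, edgeR adjusted p = 4.08e-15) and Tuba1b from 36.7 to 17.8 CPM (-1.05 ± 0.07, adjusted p = 3.12e-11). Tuba1c fell by 0.88 on the log2 scale (adjusted p = 3.59e-10). The beta-tubulin Tubb4b went from 144 to 75.8 CPM (-0.93 ± 0.04, adjusted p = 3.63e-15). Counts of these genes are uncertain: 75.1% of the 50-base words of Tuba1b and 41.3% of those of Tubb4b occur in other genes, and 37.3% of the exonic bases of Tuba4a overlap Stk16.

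The tubulins that do not enter the microtubule wall as alpha-beta dimers had values nearer to 0. Tubg1, the gamma-tubulin of microtubule nucleation, fell by 0.38 on the log2 scale (edgeR adjusted p = 1.83e-06), and the centriolar Tubd1 fell by 0.29 (adjusted p = 0.00225). Tubg2 (-0.01, adjusted p = 0.89) and the centriolar Tube1 (0.28, adjusted p = 0.0537) did not pass. Leaving out DMSO library 4 or tunicamycin library 1 put Tube1 past the threshold, at 0.36 and 0.33. Of the alpha and beta genes, Tuba8 (0.14, adjusted p = 0.58) and Tubb6 did not pass. Tubb6 stood at 13.9 ± 2.85 CPM with DMSO and 14.8 ± 1.48 CPM with tunicamycin (0.08, adjusted p = 0.558). Its share of the beta-tubulin pool, small throughout, went from 0.265% to 0.459% per kb of exon. Its log2 fold change was -0.14 in lane 1 alone and 0.39 and 0.34 in lanes 2 and 3, where it passed the threshold, and it was -0.04 with upper-quartile scaling.

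The other intermediate filament and lamin genes did not move one way. Of 10 tested, 2 rose and 3 fell by edgeR (1 and 5 with upper-quartile scaling), with a median log2 fold change of -0.07. Over all genes tested the shares were 31.8% and 32.5%. Lmna, a lamin of the nuclear envelope, rose (0.45 ± 0.05 SE, adjusted p = 8.37e-07) and Lmnb1, another lamin, fell (-0.65 ± 0.05, adjusted p = 4.07e-10). Synm, the large filament protein synemin, fell by 0.52 (adjusted p = 8.00e-10), and the astrocyte filament gene Gfap fell by 0.54 (adjusted p = 8.45e-05). Nes, the filament of progenitor cells, rose by 0.42 (adjusted p = 0.0162), a call lost with upper-quartile scaling (0.31) and in lane 1 alone (0.22). Vim (-0.04, adjusted p = 0.818) and Prph (-0.12, adjusted p = 0.225), a filament of peripheral neurons, did not pass the test.

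Nascent tubulin is folded by prefoldin, the CCT chaperonin and tubulin cofactors. Of 23 such genes, 7 rose and 7 fell by edgeR (5 and 15 with upper-quartile scaling, 4 lower without DMSO library 1), near the shares over all genes tested (31.8% and 32.5%), and the median was -0.01. Tbce, a cofactor that assembles the dimer, went from 32.7 to 59.4 CPM (0.85 ± 0.04 SE, adjusted p = 4.61e-14). Cct4, a chaperonin subunit, rose by 0.30 (adjusted p = 2.19e-08). The prefoldin subunits Pfdn5 (-0.31, adjusted p = 6.14e-06) and Pfdn6 (-0.27, adjusted p = 3.37e-05) fell.

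For the co-translational decay of tubulin mRNA, 13 genes were listed: Ttc5, Scaper and subunits of the CCR4-NOT deadenylase. Of these 8 rose and 0 fell by edgeR (4 and 2 with upper-quartile scaling), beside 31.8% and 32.5% of all genes tested. No gene was lower at an unadjusted p under 0.05, and DESeq2 called 0 lower. The largest was Cnot4, a ubiquitin ligase associated with the complex, from 56.9 to 88.7 CPM (0.63 ± 0.04 SE, adjusted p = 3.69e-12), followed by Cnot3 (0.42, adjusted p = 1.68e-08). Ttc5 itself, named here because it is the factor that recognises tubulin, stood at 34.6 ± 1.97 CPM with DMSO and 35.7 ± 0.781 CPM with tunicamycin (0.04, adjusted p = 0.435). Decay rates were not measured in these libraries, and any part of this pathway in the tubulin levels was not tested.

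Tubulin-modifying enzymes add or remove chemical groups on tubulin, and microtubule-associated proteins bind along the polymer or to its dimers. Over all genes tested 31.8% rose and 32.5% fell by edgeR. Of 21 modifying enzymes tested, 2 rose and 10 fell by edgeR (0 and 14 with upper-quartile scaling). Among them Tpgs2, a subunit of the polyglutamylase complex, fell by 0.53 (adjusted p = 1.82e-10), and Vash1, a detyrosinating carboxypeptidase, fell by 0.52 (adjusted p = 2.10e-10). The polyglutamylases Ttll5 (0.17, adjusted p = 0.00147) and Ttll1 (0.14, adjusted p = 0.00187) rose, and neither passed with upper-quartile scaling. Of 36 microtubule-associated and severing proteins, 9 rose and 20 fell (4 and 24 with upper-quartile scaling), with a median of -0.14. Dpysl2, the collapsin response mediator that binds tubulin dimers, went from 377 to 199 CPM (-0.93 ± 0.04 SE, adjusted p = 9.15e-15), and Stmn3, a dimer-sequestering stathmin, fell by 0.53 (adjusted p = 7.16e-11). Camsap1 and Camsap2, which protect microtubule minus ends, rose by 0.40 (adjusted p = 5.96e-11) and 0.41 (adjusted p = 1.34e-10).

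Of 29 genes for axonal transport motors, 7 rose and 12 fell by edgeR (3 and 21 with upper-quartile scaling), and the median was -0.04. The dynein regulator Ndel1 rose by 0.48 (adjusted p = 8.87e-12) and the kinesin-2 subunit Kif3b by 0.18 (adjusted p = 9.40e-06), while the cargo adaptor Bicd2 fell by 0.46 (adjusted p = 1.48e-11) and the dynein light chain Dynll1 by 0.48 (adjusted p = 1.81e-11). Another 23 genes were listed whose products cross-link, phosphorylate or degrade neurofilaments or bind their mRNA. Of these 23, 4 rose and 8 fell (2 and 16 with upper-quartile scaling), with a median of -0.03. Over all genes tested 31.8% rose and 32.5% fell by edgeR, so the 8 of 23 that fell are near that share. Cul3, the ubiquitin ligase scaffold that works with gigaxonin, rose by 0.46 (adjusted p = 8.26e-11) and the kinase gene Csnk1d by 0.34 (adjusted p = 4.08e-09). Mapk3, a kinase of neurofilament tails, fell by 0.42 (adjusted p = 7.40e-10), and Cdk5r2, an activator of Cdk5, fell by 0.37 (adjusted p = 1.34e-05). The median of each of these lists was nearer to 0 than that of the 6 tubulin members, and the differences between lists were not tested.

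**Figure D4:**
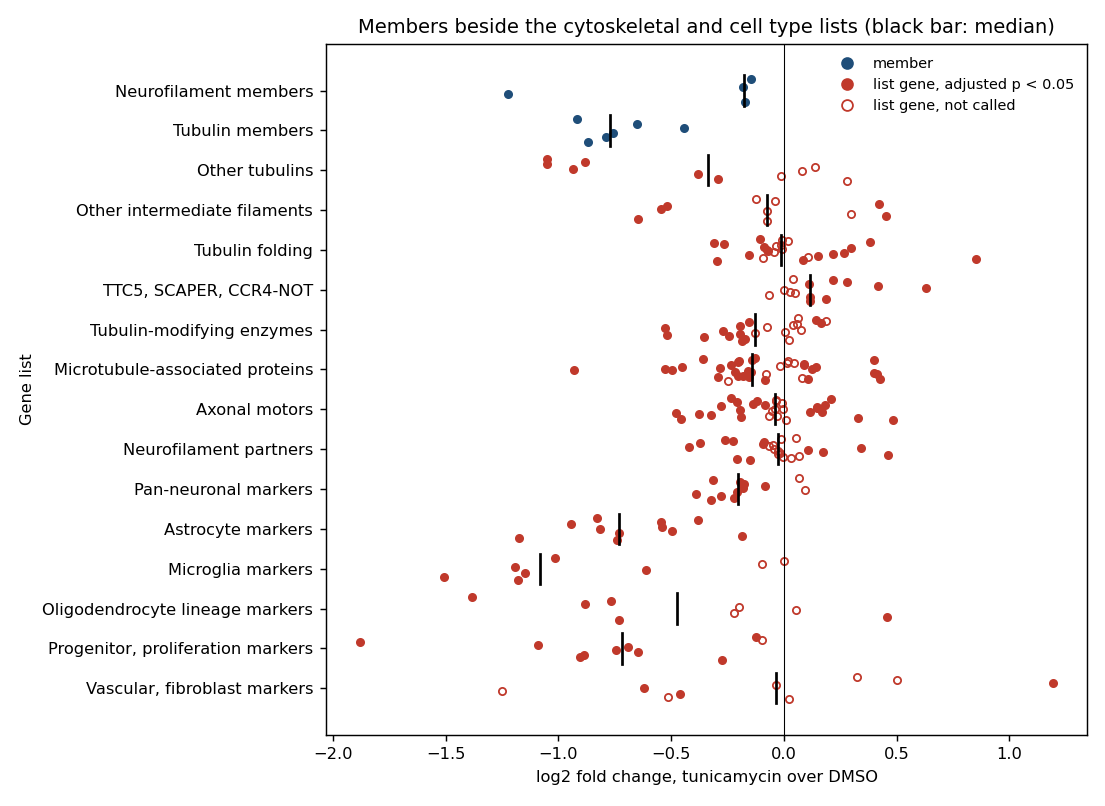
Log2 fold change of tunicamycin over DMSO (horizontal axis) for each member and each tested gene of the cytoskeletal and cell type lists (rows), filled where the edgeR adjusted p was under 0.05; blue points are the members, and black bars are list medians. The tubulin members (median -0.77) lie lower than most genes of the folding, modification, binding and motor lists. The medians of the astrocyte (-0.73) and progenitor (-0.72) markers lie near that of the tubulin members, with single markers of both lists on either side. The median of the microglia markers (-1.08) lies lower and that of the oligodendrocyte markers (-0.47) lies higher.

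Markers of neurons and of other cells in the culture moved as well, beside 31.8% of all genes tested called higher and 32.5% lower. Of 12 pan-neuronal markers outside the set, 10 fell and 0 rose by edgeR (1 higher at an unadjusted p under 0.05, and 1 by DESeq2), with a median of -0.20, near the values of Nefl, Nefm and Ina. Their summed level ranged from 5505 to 5645 CPM with DMSO and from 4581 to 4911 CPM with tunicamycin, and Snap25 of the synaptic fusion machinery fell by 0.31 (adjusted p = 2.49e-08). All 11 astrocyte markers fell (median -0.73), and their sum ranged from 3262 to 3667 CPM with DMSO and from 2232 to 2470 CPM with tunicamycin. The glutamate transporter gene Slc1a3 went from 867 to 492 CPM (-0.83, adjusted p = 1.40e-14). Of 10 progenitor and proliferation markers 9 fell (median -0.72), and their sum ranged from 154 to 180 CPM with DMSO and from 112 to 123 CPM with tunicamycin. Hes5, a target of Notch signalling, fell by 1.88 (adjusted p = 6.49e-10). In fits without DMSO library 3 or 4 or without tunicamycin library 1, 4 or 5, 1 pan-neuronal marker was called higher. The same count was found with the size factors of DESeq2, with the 2 other filters and in lane 1 alone.

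Microglia markers summed to between 17.3 and 21.6 CPM with DMSO and between 12.3 and 15.2 CPM with tunicamycin, and 6 of 8 tested fell, among them Tyrobp (-1.19, edgeR adjusted p = 2.28e-05). Oligodendrocyte markers summed to between 191 and 240 CPM and between 122 and 147 CPM, and 4 of 8 tested fell, among them Cnp (-0.73, adjusted p = 2.96e-10), and Mog rose (0.46, adjusted p = 0.0011). Vascular and fibroblast markers summed to between 116 and 217 CPM and between 97.0 and 156 CPM, and 2 of 9 tested fell (4 without DMSO library 4), among them Rgs5 (-0.62, adjusted p = 0.00277), and Flt1 rose (1.19, adjusted p = 0.000105). The median log2 fold change was -1.08 for the microglia, -0.47 for the oligodendrocyte and -0.04 for the vascular and fibroblast markers. Over all genes tested 31.8% were higher and 32.5% lower by edgeR. No marker was at 0 in all libraries. Tubb5 and Tuba1a are also transcribed in glia and progenitors, and the part of these cells in the tubulin levels was not tested.

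The genes most like Nefh and Tubb3 across the 10 libraries were ranked by the root mean square difference of centred log2 CPM, over 9540 other genes with a mean of at least 10 CPM. Nearest to Nefh were Glul (0.0627 log2 units), the glutamine synthetase gene of astrocytes, the membrane protease gene Mmp14 (0.0870) and the Wnt receptor gene Fzd9 (0.0967). Glul went from 181 to 80.8 CPM, Mmp14 from 31.3 to 14.3 CPM and Fzd9 from 22.2 to 10.5 CPM. The member nearest to Nefh was Tubb3, at 0.177. Nearest to Tubb3 were Wdr6 (0.0385, from 694 to 363 CPM), Aacs (0.0421, from 231 to 127 CPM), which encodes acetoacetyl-CoA synthetase, and Thrsp (0.0466, from 93.0 to 49.0 CPM). Tuba1a, the nearest member, was about as close at 0.0447. These distances describe libraries of only 2 groups, so they mainly rank genes by a like difference between the groups.

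The mean levels of the tunicamycin libraries also differed between lanes, as the file names give them. The mean tunicamycin level of Tubb3 was 439 CPM in lane 1, 475 in lane 2 and 502 in lane 3. Those of Tuba1a were 840, 897 and 923 CPM, of Tubb5 769, 793 and 847 CPM and of Tubb4a 246, 267 and 286 CPM. All members but Nefh and Nefl had their lowest mean in lane 1 and their highest in lane 3. Nefh (13.1, 12.9 and 14.1 CPM) and Nefl (371, 369 and 376 CPM) were lowest in lane 2 and highest in lane 3. For the 4 tubulins the span between lanes was small beside the distance to the DMSO group. The DMSO libraries of these 4 genes did not show the same rise. From lane 2 to lane 3 they went from 922 to 851 CPM for Tubb3 and from 1651 to 1561 CPM for Tuba1a. Those of Tubb5 went from 1409 to 1346 CPM and those of Tubb4a from 464 to 441 CPM. Each lane holds 2 tunicamycin libraries, so lane and library-to-library spread cannot be told apart. Across all 20 alternative analyses per gene the log2 fold change stayed between -1.38 and -1.17 for Nefh, between -1.03 and -0.77 for Tubb3, between -0.98 and -0.77 for Tuba1a and between -0.56 and -0.39 for Tubb2b.

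**Figure D5:**
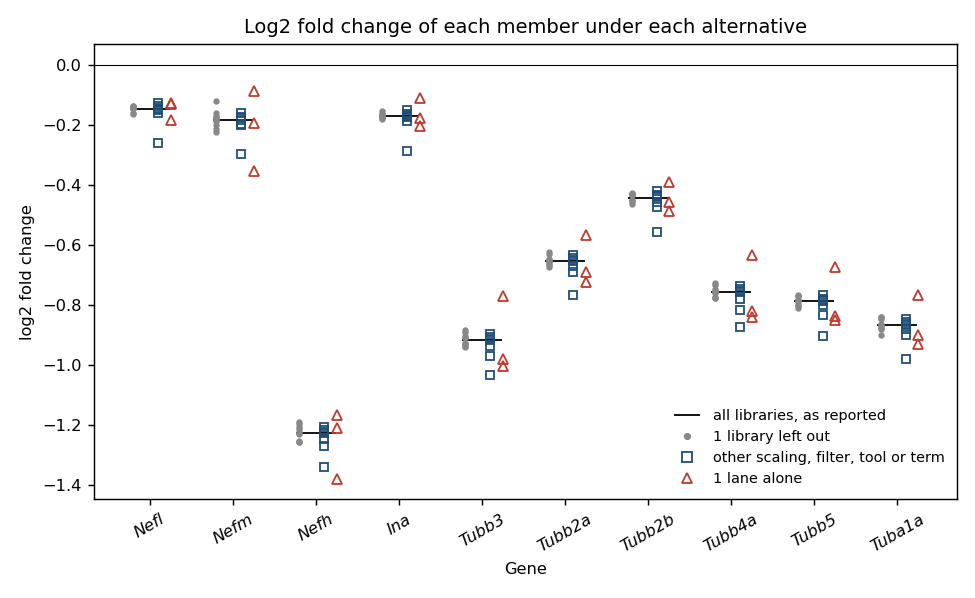
Log2 fold change of each member (vertical axis) with all libraries (black line), with 1 library left out (grey), with another scaling, filter, tool or model term (blue squares) and in 1 sequencing lane alone (red triangles). All points lie below 0; Nefm has the widest range relative to its value, from -0.35 to -0.09.

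The authors' deposited table of downregulated genes lists all 10 members and their table of upregulated genes lists 0. By edgeR 32.5% of all genes tested were lower, and the members were chosen from this contrast, so nothing is read from this count. In the authors' deposited table the log2 fold change is -1.23 for Nefh, -0.92 for Tubb3 and -0.45 for Tubb2b. Over the 10 members, these deposited values differed from the edgeR values by at most 0.0064. Both come from the same libraries and contrast, so this likeness is no independent support.

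Promoter sequences, a short window around the annotated start, were found in RefSeq (GRCm38.p6) for 6 of the 10 members: Tubb3, Tubb2a, Tubb4a, Tubb5, Tuba1a and Ina. The ER stress response element (ERSE), searched on both strands, was in 0 of these 6 and in 0.119% of all 32851 promoters. TGATGNAAT, a composite ATF4 and CHOP motif, was in 0 of 6 and in 0.965% of all. Both motifs are so rare over all promoters that 0 of 6 was likely in advance, so nothing is read from it. The CCAAT box, which an ERSE contains, was in 3 of 6 (Tubb3, Tuba1a and Tubb5; 37.4% of all), and the GC box GGGCGG was in 5 of 6 (35.7% of all). TGACGTCA, the cAMP response element, was in 1 of 6 (Tubb2a; 1.79% of all), and the E-box CANNTG in 4 of 6 (72.3% of all). These are matches of letters in this window only.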

How the data were processed

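TruSeq RNA v2 libraries were read as 50 bp single ends, per the labels' protocols; the kit does not mark strand. The build mm10 and the tools STAR 2.5.2b, Subread 1.5.1, featureCounts, FastQC 0.11.5 and DESeq2 are named, without roles, per the submitters' processing notes. Not given in the sources used here: annotation release and multi-mapping settings. The authors deposited whole-number counts per gene and library, unnormalized, and result tables with a log2 fold change, p-values and a normalized signal per library; only the deposited log2 fold changes of the members were used. GENCODE M21 (GRCm38) matched 48349 of 48709 identifiers; the 360 others held 0.0462% of counts.

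CPM used library totals. The test was edgeR 4.0.16 (R 4.3.3): TMM, filterByExpr, robust quasi-likelihood F test on 10 libraries, two-sided, Benjamini-Hochberg adjustment over 15660 genes, called under 0.05. Standard errors are the fold change over the square root of F. The biological coefficient of variation was 0.049, and pairs of libraries within a group gave a chi-square over its degrees of freedom of 2.17 to 10.3, so none repeats another. Code was tested on simulated data. A shared word is a 50-base stretch of a gene's transcripts found in another gene's.

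Members and lists were chosen with earlier results of these data known. Named genes are the members, every tested other tubulin, the 2 rising and 2 falling called genes with smallest p of each pathway list, 1 in each direction of each cell type list, and the 3 genes most like Nefh and Tubb3; Gfap, Vim, Prph and Ttc5 were added after their values were seen. Alternatives were DESeq2 1.42.0 and its size factors, upper-quartile scaling, 2 other filters, lane and replicate terms, single lanes and leaving out each library.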

Additional observations from a re-analysis of the deposited data

Results flagged for a closer look

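Of 38 groups of values examined for a library standing apart, 3 held one whose gap to its nearest neighbour was large for the range of the group; chance gives about 1 in 20 groups. Tunicamycin library 6 held Nefl at 387 CPM, above the other 5 tunicamycin libraries. The Tubb5 share of beta-tubulin CPM per kb was 19.6% in DMSO library 1, above the other DMSO libraries, and 17.5% in tunicamycin library 4, below the other tunicamycin libraries.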

How the results depend on the processing

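Over 20 alternatives for each of the 10 members, the log2 fold change of every member kept its sign. This describes values from the contrast that the set was chosen on and is no support for them. The values nearest to 0 were those of Nefm (-0.09) and Ina (-0.11). With 1 library left out, Nefm ranged from -0.22 to -0.12. In lane 1 alone 8 of the 10 members were called lower, and Nefl and Nefm were not. Counts over all genes stayed within 1.5 times. Values near 0 changed sign: Tuba8 in lane 3 alone (-0.16); Tubb6 with upper-quartile scaling (-0.0357), in lane 1 alone (-0.14) and with 1 library left out (-0.011 without DMSO replicate 4 to 0.18 without DMSO replicate 1); Tubg2 with no low-count filter (0.0078), in lane 3 alone (0.049) and with 1 library left out (-0.0605 without DMSO replicate 2 to 0.048 without DMSO replicate 3). The cause was not tested. In single lanes with fewer libraries, Tubd1, Pfdn6, Ttll5, Ttll1, Nes, Tyrobp, Mog, Flt1 and Rgs5 each lost their call in at least 1 lane. With the replicate number as a replicate block on the 8 libraries numbered 1 to 4, 4416 genes were higher and 4398 lower of 15396 tested. Tubb3 was -0.97 and Nefh was -1.27. Deviations of same-numbered libraries correlated at -0.217 to 0.0086, and those of differently numbered DMSO and tunicamycin libraries at -0.154 to 0.183. No pairing by number is seen in these values, which cannot exclude it. Shares of the members computed from CPM with no length kept their direction, with Tubb3 at 18.7% and 16.1% and Nefh at 3.10% and 1.51%, DMSO first. Lanes 2 and 3 hold 1 DMSO library each, so fits of these lanes assume that it varies as the tunicamycin libraries do. Genes with few counts, such as Tuba8 at 0.859 CPM, have wide errors (SE 0.21).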
